A study of Mus musculus with 32 samples.

Results

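Gm2016, Gm2022, Gm4027 and Gm4850 are 4 mouse genes with Gm-numbered symbols, and they were examined across eggs and 2-cell embryos as 4 of the 54532 genes of the table. They had been picked by name for their steep activation in WT embryos and for their lower level in MZ-KO embryos of the late 2-cell stage. The level of each gene in WT eggs, WT early embryos and both groups of late embryos therefore chose it, and those contrasts are described below without a test. Each library was made from 1 egg or 1 embryo. Among the eggs 3 were WT and 3 were labelled Trp53 KO. At the early 2-cell stage there were 8 WT embryos and 6 labelled Trp53 MZ-KO, and at the late 2-cell stage 6 of each. The design text gives 6 replicates for the early stage, whereas 8 WT samples carry that label, and all 8 were used. WT stands for animals homozygous for a floxed Trp53 allele, in which exons 2 to 10 are flanked by recombination sites. The knockout allele had lost these exons through Cre recombinase driven by the germ-cell gene Ddx4, and MZ-KO embryos came from knockout mothers and knockout fathers, on a mixed background. Zygotes were taken 24 hours after hCG, the hormone given to induce ovulation, and cultured in KSOM medium, with early embryos collected at 28 to 32 hours and late embryos at 48 hours. The number of mothers behind each group is not stated, so p-values cover the spread from one egg or embryo to the next, siblings perhaps included. The comparison of genotypes addresses whether loss of p53, the stress-responsive transcription factor encoded by Trp53, alters gene activation in the 2-cell embryo.

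Mouse embryos start to transcribe their own genome around the 2-cell stage, in a minor and then a major wave. The homeodomain factor Dux is made briefly at the beginning of this period and activates a set of genes and retrovirus-like repeats that are otherwise silent, among them the Zscan4 genes. Many genes of this set are multicopy, intron-poor and of unknown function, and a number of them carry provisional symbols. Binding or induction by Dux was not measured here, and Duxf3, the Dux gene of the annotation, served only as a reference.

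The label of the 4 genes covers members of unrelated sequence families, as their transcripts in the GENCODE M21 annotation showed. Gm2016 (chr12:87874072-87877859, plus strand), Gm2022 (chr12:87895370-87895804, plus strand) and Gm4027 (chr12:87618869-87622955, plus strand; all build mm10) are annotated as protein coding and each has a coding sequence of 435 bases. In that sequence Gm2016 and Gm2022 differed at 5 bases (98.9% identity), Gm2022 and Gm4027 at 8 (98.2%) and Gm2016 and Gm4027 at 10 (97.7%). Their coding sequences resemble those of Eif1a and Eif1ax, which encode the translation initiation factor eIF1A, a protein that helps the small ribosomal subunit find the start codon. They belong to a family of 22 annotated genes, of which 19 lie within 0.835 Mb of chromosome 12. The stretch from coding base 262 to base 381, counted from 1 at the start codon, is shown because 7 of the 11 positions at which the 3 genes differ fall in it. These positions are in capitals.
Gm2016: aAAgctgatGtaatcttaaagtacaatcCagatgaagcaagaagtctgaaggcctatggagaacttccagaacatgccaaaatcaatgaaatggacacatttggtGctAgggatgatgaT
Gm2022: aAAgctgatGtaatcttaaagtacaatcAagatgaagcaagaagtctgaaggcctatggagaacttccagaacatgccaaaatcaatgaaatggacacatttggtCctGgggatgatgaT
Gm4027: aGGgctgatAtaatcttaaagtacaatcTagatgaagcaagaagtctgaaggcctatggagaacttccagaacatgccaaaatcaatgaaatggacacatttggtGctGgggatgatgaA

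This closeness limits how far reads can be assigned to 1 gene. Of all stretches of 50 bases in the annotated transcript, 18.7% were found in no other annotated transcript for Gm2016, 2.85% for Gm2022 and 5.61% for Gm4027. Gm4027 shared 94.4% of its 50-base stretches with its relative BB287469, another gene of this region, and the coding sequences of the pair were 100% identical. How the authors assigned reads that match several genes is not given in the sources used here, so the values of the 3 chromosome 12 genes are uncertain as values of single genes. The closest relatives of Gm2016 were Gm5662 (99.1% identity), Gm8332 (98.6%), Gm2056, Gm6803 and Gm8300 (98.2% each), and those of Gm2022 were Gm8332 (98.9%), Gm5662, Gm6803 and Gm8300 (98.4% each). Gm4027 was followed after BB287469 by Gm2075 (98.4%).

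Gm4850 (chr1:31267326-31267884, plus strand) is annotated as a processed pseudogene, that is, a copy of a spliced messenger RNA inserted back into the genome. It belongs to a family of 32 annotated genes that includes Alyref and Alyref2, which encode adaptors for the export of messenger RNA from the nucleus, and 22 of the 32 lie on chromosome 10. The 4 closest relatives all lie on chromosome 1, namely Gm28645 (92.7% identity), which starts after a gap of 7007 bases, Gm6489 (91.8%), AC153137.1 (90.9%) and 4931428L18Rik (90.5%). The frame that opens at the first ATG of Gm4850, at transcript base 13, ends after 115 codons at a TGA that starts at base 358. None of its 31 relatives has a stop codon at the aligned place. The stretch around this place is shown for Gm4850 and 3 relatives, and the aligned codon is in capitals. Gm4850 has 63 bases in this stretch and each of the 3 relatives 66. Whether the relatives hold a stop codon elsewhere in their frames was not examined.
Gm4850: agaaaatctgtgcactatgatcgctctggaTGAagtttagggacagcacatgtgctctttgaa
Gm28645: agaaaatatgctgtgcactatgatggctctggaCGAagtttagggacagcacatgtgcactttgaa
Gm6489: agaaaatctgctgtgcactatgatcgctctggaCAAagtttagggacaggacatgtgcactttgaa
Gm4340: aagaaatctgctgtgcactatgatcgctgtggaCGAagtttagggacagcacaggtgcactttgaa
For Gm4850 95.9% of 50-base stretches occurred in no other annotated transcript, and its values are therefore far less exposed to shared reads than those of the other 3 genes.

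A search of promoters for a binding motif of Dux was planned. The promoter table of RefSeq (build GRCm38.p6) held 7 genes of the Eif1a-like family, Gm4027 alone among the 4 genes. The binding motif recalled for mouse Dux, a palindrome-like run of 11 letters with 1 free letter in its middle, was searched on both strands and was found exactly in 0 of these 7 promoters and in 11 of all 32851 promoters (0.0335%). With at most 1 differing letter it was found in 3 of the 7, those of Gm4027, BB287469 and Gm21319, and in 241 of all promoters (0.734%). It was found in 0 of 15 promoters of Gm4850-like genes, exactly or with 1 differing letter. The 3 Eif1a-like promoters belong to related genes of similar sequence, so they are not separate cases. In all 3 the run of 11 letters at the match was the same, and 1 of its letters differs from the motif. The whole run, the differing letter included, is in capitals in the 150 bases before the annotated start of Gm4027 (chr12:87618719-87618868, plus strand) and of Gm21319 (chr12:87775756-87775905, minus strand).
Gm4027: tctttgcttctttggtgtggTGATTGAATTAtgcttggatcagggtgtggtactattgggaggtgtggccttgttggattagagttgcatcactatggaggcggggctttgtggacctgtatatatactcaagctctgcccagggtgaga
Gm21319: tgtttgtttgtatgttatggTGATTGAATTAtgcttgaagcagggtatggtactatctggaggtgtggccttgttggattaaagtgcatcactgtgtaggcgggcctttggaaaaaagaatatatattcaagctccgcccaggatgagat
The match starts 130 bases before the annotated start in both. Gm21319 had a mean of only 0.708 FPKM in WT early embryos and Gm4027 had 16.1, so promoters with this match differed widely in level.

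The unit of all levels is FPKM, fragments scaled to gene length and library depth, and the deposited values take the whole genomic span as the length. Introns make up 2022 of the 3788 bases of Gm2016 and 2237 of the 4087 bases of Gm4027, so their FPKM values understate the RNA per exon base. Gm2022 and Gm4850 have no intron in GENCODE, where they span 435 and 559 bases. RefSeq gives them longer spans, 3889 bases for Gm2022 and 3215 for Gm4850. What is said here of their transcripts holds for the GENCODE models. The libraries rested on 7200000 to 27600000 reads (median 18300000). Between 6088 and 9745 genes were at FPKM 1 or more. Trp53 itself had a mean of 6.05 FPKM in WT early and 0.77 in MZ-KO early embryos, lower as labelled, but 7.86 and 8.19 in WT and KO-labelled eggs and 3.24 and 2.82 in WT and MZ-KO late embryos, where the deletion is not visible in the RNA level. The defining oocyte genes (Zp1, Zp2, Zp3, Gdf9 and 4 others) were present at FPKM 1 or more in all 6 groups, and 0 of 10 cumulus and granulosa genes reached FPKM 1 in any library.

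Before the 2-cell stage the genes were silent or nearly so. Gm2016, Gm2022 and Gm4027 were listed at 0 in all 3 WT and all 3 KO-labelled eggs. Gm4850 was listed at 0 in 4 of the 6 eggs and at 0.963 FPKM in 1 WT and 0.591 FPKM in 1 KO-labelled egg, which rest on 8 and 6 reads. No test between the egg groups was made.

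**Figure D1:**
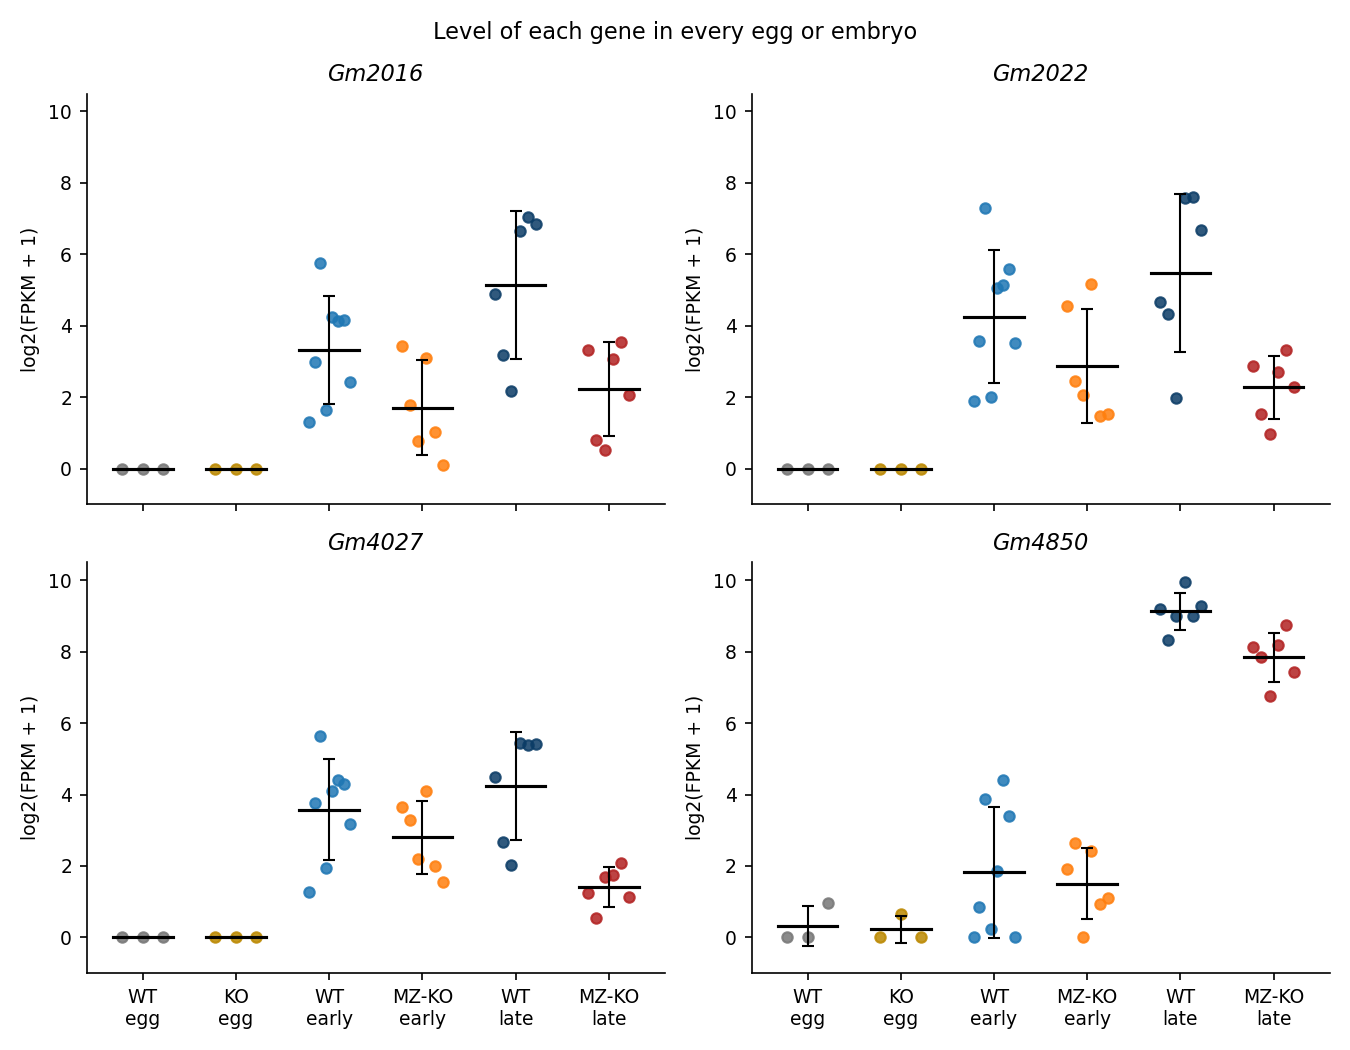
log2(FPKM + 1) of Gm2016, Gm2022, Gm4027 and Gm4850 in each of the 32 libraries (points), by group, with the group mean (bar) and SD (whisker). The chromosome 12 genes are already high in early embryos and spread widely within each embryo group, while Gm4850 is low in early and high in all 12 late embryos.

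In WT early embryos the 3 chromosome 12 genes were on in every library, but at levels that spanned more than 1 order of magnitude. Gm2016 ranged from 1.49 to 52.8 FPKM with a median of 11.7 over the 8 embryos. Gm2022 ranged from 2.69 to 156 FPKM (median 21.8), and Gm4027 from 1.40 to 49.2 (median 14.2). The same embryo, library 3, was highest for all 3 genes, and libraries 1 and 4 were the 2 lowest for each. Library 3 also had the most genes at FPKM 1 or more of the 8, 7990, and library 4 the fewest, 6965; the part of this in the spread was not tested. Gm4850 was lower, from 0 to 20.2 FPKM with a median of 1.72, and was listed at 0 in 2 embryos.

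In WT late embryos Gm4850 was at a different order of level. Its lowest value was 323 FPKM, its median 551 and its highest 980 FPKM, so all 6 late embryos lay above all 8 early ones, whose mean was 5.86 ± 7.70 FPKM (SD, n = 8) against 589.9 ± 218 (SD, n = 6). The log2 difference was 7.30. The chromosome 12 genes had no such step between early and late. Gm2016 was at 28.7, 8.13, 3.53, 100.4, 131 and 114 FPKM in late libraries 1 to 6, and Gm2022 at 24.6, 19.1, 2.94, 190, 194 and 102. Gm4027 was at 21.6, 5.39, 3.11, 42.7, 40.6 and 41.8 FPKM. Libraries 4, 5 and 6 were the highest and library 3 the lowest for all 3 genes, and 3 of 6 late embryos lay inside the early range for Gm2016, 4 of 6 for Gm2022 and 6 of 6 for Gm4027. From early to late the group means moved from 14.9 ± 16.8 to 64.3 ± 57.2 FPKM for Gm2016 (SD, n = 8 and 6). They moved from 37.1 ± 50.8 to 88.7 ± 87.0 for Gm2022 and from 16.1 ± 15.1 to 25.9 ± 18.5 for Gm4027 (SD, n = 8 and 6). The stages overlapped for all 3 genes, while 3 late embryos lay above all early ones for Gm2016, 2 for Gm2022 and 0 for Gm4027.

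The early genotype comparison itself was not used in choosing the genes, but the level in its WT early embryos was. Its differences and p-values are therefore not free of that choice. None of the 4 genes passed the test. Gm2016 ranged from 0.078 to 9.82 FPKM in the 6 MZ-KO early embryos, with a median of 1.74, against the 11.7 of WT. The lowest value rests on 5 reads. Less RNA in each cell and RNA in fewer of the cells of an embryo cannot be told apart in these libraries. Gm2022 ranged from 1.79 to 34.7 FPKM (median 3.85), Gm4027 from 1.94 to 16.3 (median 6.15) and Gm4850 from 0 to 5.24 (median 1.98). The ranges of the genotypes overlapped for every gene, and 3 MZ-KO embryos lay below all WT embryos for Gm2016, 2 for Gm2022 and 0 for Gm4027 and Gm4850.

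In limma, a linear model fitted to all genes at once on log2(FPKM + 1), the difference of MZ-KO from WT early embryos was -1.62 for Gm2016 (SE 0.705, 95% interval -3.13 to -0.12, adjusted p = 0.2). It was -1.38 for Gm2022 (SE 0.858, interval -3.22 to 0.45, adjusted p = 0.367). Gm4027 had -0.77 (interval -2.10 to 0.56, adjusted p = 0.507) and Gm4850 had -0.32 (interval -1.93 to 1.30, adjusted p = 0.854). All 4 passed the filter on low values, and 0 of 4 were called, where 252 of 7675 genes were called in either direction (3.28%) and 54 as lower (0.704%). At an unadjusted p below 0.05 limma had 1 of the 4, Gm2016, and 1635 of all 7675 genes (21.3%), and the exact permutation test, which enumerates all 3003 assignments of libraries to the 2 groups, had 0 of the 4, with two-sided p = 0.0583 for Gm2016, 0.166 for Gm2022, 0.279 for Gm4027 and 0.704 for Gm4850. The intervals of Gm2016, Gm2022 and Gm4027 include falls far larger than the estimates, and a lack of a call does not show equal levels. The count of 252 fell to 131, 136, 130 and 105 without MZ-KO early library 2, 3, 5 or 6.

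**Figure D2:**
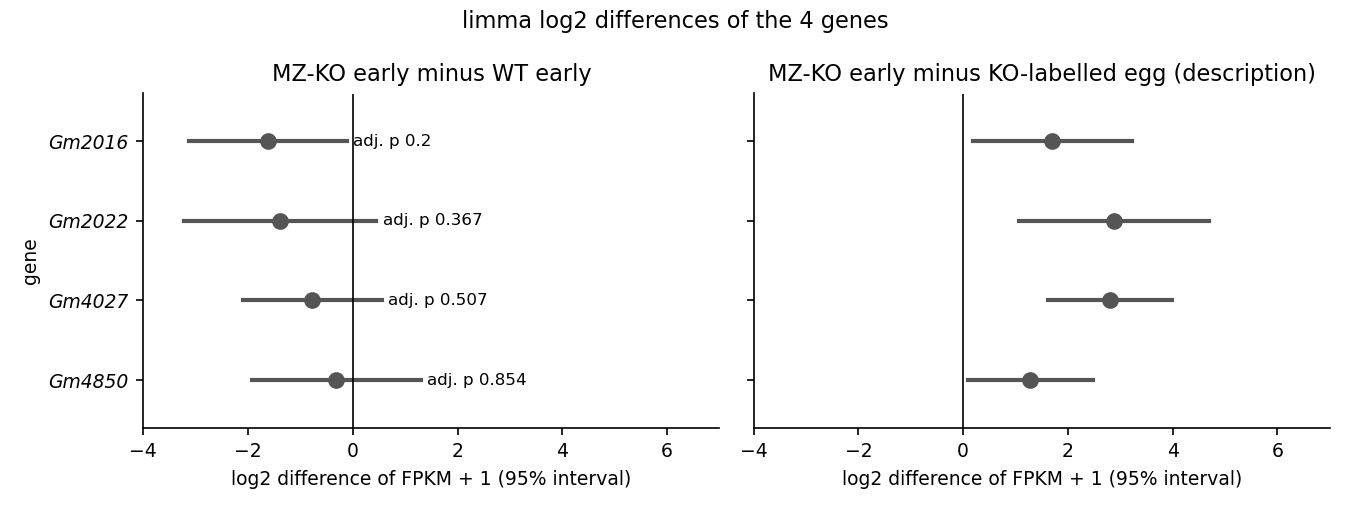
limma log2 differences (points) with 95% intervals (lines) for the 4 genes in MZ-KO early against WT early embryos (left) and MZ-KO early embryos against KO-labelled eggs (right), with the adjusted p on the left. No gene reached an adjusted p below 0.05 on the left, and the right panel is a description, since all 4 genes passed the filter through the embryos alone.

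Relatives of the 4 genes were not called at the early stage either. Of 19 Eif1a-like relatives 14 were tested and 0 were called in either direction, with a median difference of -0.72 and 0 at an unadjusted p below 0.05. Of 31 Gm4850-like relatives 25 were tested and 0 called, with a median of -0.56 and 1 at an unadjusted p below 0.05, where the share over all genes was 21.3%. The median over all genes tested was 0.05. Of 63 other genes listed as Dux-induced, 6 of them Eif1a-like and 1 Gm4850-like relatives, 53 were in the table and 37 were tested. Of these, 1 was higher and 0 lower, with a median of -0.66. The gene that rose was Tcstv3 (log2 difference 1.53, SE 0.368, adjusted p = 0.0371 in limma), at 16.7 ± 9.56 FPKM in MZ-KO and 4.88 ± 2.58 in WT early embryos (SD, n = 6 and 8). Duxf3 was at 4.49 ± 3.36 FPKM in MZ-KO and 2.72 ± 1.60 in WT early embryos (SD, n = 6 and 8; limma adjusted p = 0.605).

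The chromosome 12 genes, at 0 in KO-labelled eggs, were present in every MZ-KO early embryo, at the levels given above. All 6 embryos lay above all 3 eggs for Gm2016, Gm2022 and Gm4027, and 5 of 6 for Gm4850. The log2 difference of MZ-KO early embryos from KO-labelled eggs was 2.87 for Gm2022 (SE 0.811), 2.80 for Gm4027 (SE 0.528), 1.70 for Gm2016 (SE 0.679) and 1.28 for Gm4850 (SE 0.533). No KO-labelled egg reached FPKM 1 for any of the 4 genes, so each passed the filter on low values through the embryos alone and had to differ. The differences are therefore a description, with no call and no p-value. For scale, limma called 4086 of 8305 genes between these groups (49.2%), 2421 higher (29.2%) and 1665 lower (20%), or 2112 higher and 2217 lower once libraries were scaled by median ratios. That scaling moved the median of all genes by -0.14, less than any of the 4 differences.

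In late embryos labelled MZ-KO the chromosome 12 genes were low in every library, which is the difference for which they were picked. Gm2016 was at 8.97, 0.739, 0.423, 7.41, 10.6 and 3.16 FPKM in the 6 embryos, and Gm2022 at 6.28, 1.89, 0.946, 5.49, 8.997 and 3.84. Gm4027 was at 1.38, 0.456, 2.25, 2.35, 3.25 and 1.18. Set against the WT late means, the MZ-KO means were 12.3-fold lower for Gm2016, 19.4-fold lower for Gm2022 and 14.3-fold lower for Gm4027. The groups still overlapped, because WT late library 3, and for Gm2016 also library 2, lay within the range of the MZ-KO embryos. For Gm4027 5 of 6 MZ-KO embryos lay below all WT late embryos, for Gm2016 3 of 6 and for Gm2022 2 of 6.

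Gm4850 stayed at a high level in the same embryos. It was at 279, 228, 107, 288, 428 and 172 FPKM in the MZ-KO late libraries and its mean was 2.36-fold below the WT late mean (250.3 ± 111 against 589.9 ± 218 FPKM, SD, n = 6 each). Here 5 of 6 MZ-KO embryos lay below all WT embryos. The authors' deposited table gives log2 fold changes of WT over MZ-KO of 3.86 for Gm2016 (SE 0.92), 4.54 for Gm2022 (SE 0.77), 4.06 for Gm4027 (SE 0.59) and 1.46 for Gm4850 (SE 0.34). That table does not name its groups. They were inferred from its correlation of 0.9995 with the FPKM ratio of these late groups over genes.

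Between the early and late stages in MZ-KO embryos the genes differed from one another. The log2 difference of late from early was 0.51 for Gm2016, -0.60 for Gm2022, -1.39 for Gm4027 and 6.34 for Gm4850. For Gm4027 the mean went from 7.52 ± 5.68 to 1.81 ± 0.996 FPKM (SD, n = 6 each) and 3 late embryos lay below all early ones, and for Gm4850 all 6 late embryos lay above all early ones. By mean level Gm2016 thus ran from WT late to WT early, MZ-KO late and MZ-KO early embryos, and Gm2022 and Gm4027 from WT late to WT early, MZ-KO early and MZ-KO late. Every pair of neighbours in those orders overlapped. Gm4850 ran from WT late to MZ-KO late, WT early and MZ-KO early embryos, and only the step between late and early separated the libraries.

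Markers of other cell types differed between the late groups. The summed level of 7 blood and immune genes was 12.3 to 22.02 FPKM in WT late and 32.3 to 154 in MZ-KO late embryos, of which 3 genes reached FPKM 1, while Hbb-bs, Hbb-bt and Ptprc were at 0 in all MZ-KO late embryos. The alpha-globin genes Hba-a1 (14.6 to 73.5 FPKM in MZ-KO, 4.71 to 12.4 in WT) and Hba-a2 (16.7 to 79.3 and 7.05 to 12.4) made up most of it. The 6 sperm genes summed to 7.60 to 13.5 FPKM in MZ-KO late and 10.2 to 28.7 in WT late embryos. The part of either list in the levels of the 4 genes was not tested.

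The relatives had no part in choosing the genes and were tested in the late comparison, a test that was added after the levels of the 4 genes were known. In limma 2802 of 8772 genes were called (31.9%), 1178 as lower (13.4%) and 1624 as higher, or 1628 lower and 1097 higher with median-ratio scaling, which moved the median of all genes by -0.15. Of 14 tested Eif1a-like relatives 5 fell, namely Gm8332 (log2 difference -3.45), BB287469 (-2.54), Gm2075 (-2.41), Gm5788 (-1.58) and Gm2056 (-1.48), and Eif1ax had a difference of 0.72 (adjusted p = 0.0483). The median of the 14 was -1.36 and that of all genes 0.07. The call of Eif1ax was fragile, since no Eif1a-like relative was higher with a pseudocount of 0.1, no filter, a filter of FPKM 5 or median-ratio scaling, nor in 11 of the 12 fits that left out 1 library, all except that without MZ-KO late library 6. Because the chromosome 12 relatives share most of their sequence with Gm2016, Gm2022 and Gm4027, their values are not separate evidence. The number that fell was 3 without WT late library 4, 5 or 6 and 10 without WT late library 3.

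**Figure D3:**
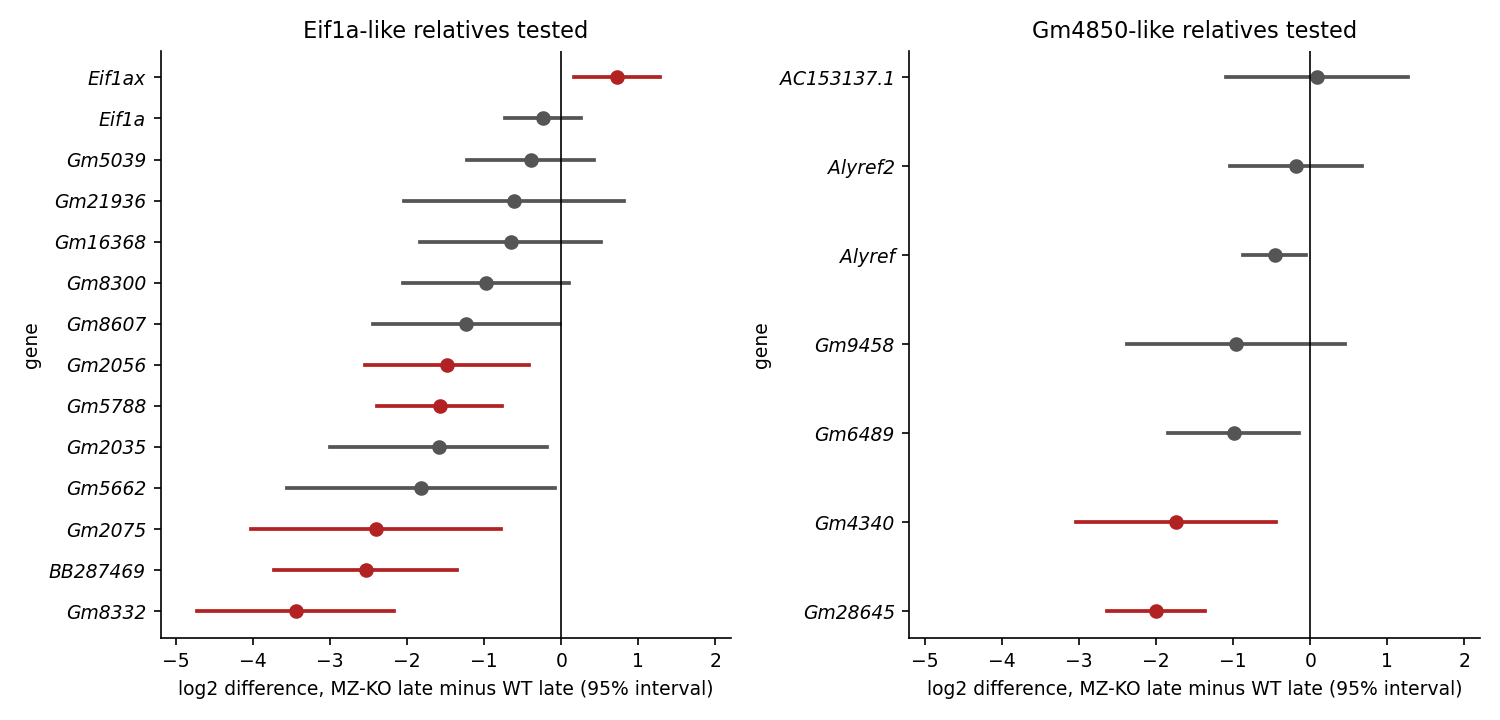
limma log2 differences of MZ-KO late from WT late embryos (points) with 95% intervals (lines) for the 14 Eif1a-like and 7 Gm4850-like relatives that were tested; red marks an adjusted p below 0.05. Of the Eif1a-like relatives 5 lie below 0 in red and Eif1ax lies above it, and of the Gm4850-like relatives Gm28645 and Gm4340 lie below 0 in red.

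Among the Gm4850-like relatives 7 were tested and 2 fell, Gm28645 by 2.00 (SE 0.292, limma adjusted p = 0.000391) and Gm4340 by 1.74 (SE 0.602, adjusted p = 0.0421), with a median of -0.97. Gm28645, the nearest relative in sequence and in place, was at 680 ± 181 FPKM in WT late and 178 ± 89.9 in MZ-KO late embryos (SD, n = 6 each). Gm4340 was far lower, at 7.45 ± 9.06 FPKM in WT late and 0.788 ± 1.05 in MZ-KO late embryos (SD, n = 6 each). Its SD exceeded its mean in both groups. Alyref and Alyref2, the family members with a known function, had differences of -0.46 and -0.18 and were not called (adjusted p = 0.0784 and 0.751). Of the other genes listed as Dux-induced 40 were tested, 21 fell and 2 rose, with a median of -1.15. Over all genes tested, 13.4% were called lower and 18.5% higher, with a median of 0.07. Those that fell include BB287469, Gm2056 and Gm4340, already named above as relatives, and genes of the Zscan4, Tdpoz and Usp17l families. Genes of the same family may share reads, so the 21 are not separate cases.

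Across the stages in WT embryos the families parted. The chromosome 10 relatives of Gm4850 had in 21 of 22 cases a lower mean in WT late than in WT early embryos. Of these, 13 were listed at 0 in all 6 late libraries. The share of all genes with a lower late mean is not given here. Several of these relatives have the same identity to Gm4850 (90.2% over 548 bases) and may share reads, so they are not separate cases. Gm4850 and Gm28645 went the other way, and Gm28645 was the only 1 of 31 relatives with a WT late mean above 100 FPKM (7.33 ± 8.75 in early embryos). Gm6489 stayed near its early level (12.2 ± 12.4 and 13.7 ± 5.29 FPKM), and AC153137.1 went from 34.1 ± 30.5 to 7.21 ± 5.63. In the Eif1a-like family Gm5788, which has no annotated intron, was highest in WT late embryos at 319 ± 135 FPKM after 23.1 ± 24.6 in early ones. The genes Eif1a and Eif1ax were at 0.371 ± 0.404 and 4.76 ± 1.63 FPKM in WT early and at 18.4 ± 4.02 and 1.95 ± 0.611 in WT late embryos (SD, n = 8 and 6).

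**Figure D4:**
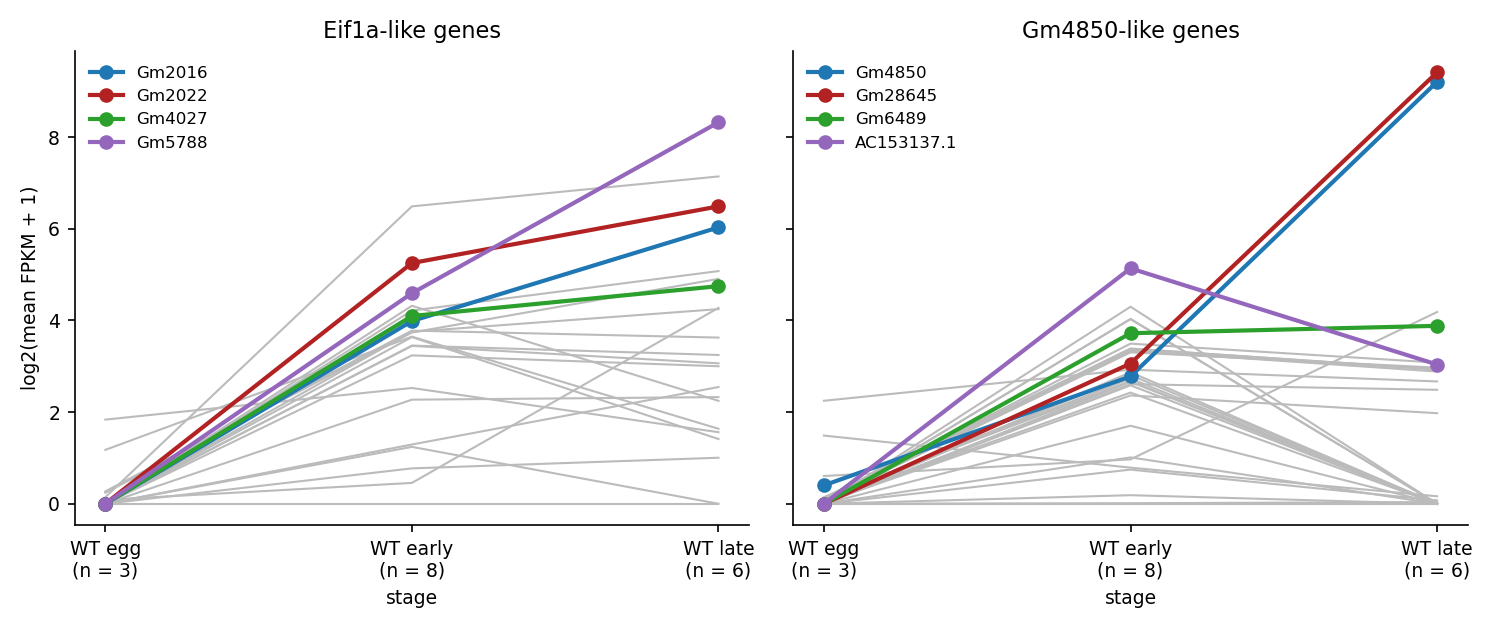
log2(mean FPKM + 1) of WT eggs, WT early and WT late embryos for each annotated gene of the Eif1a-like family (left) and the Gm4850-like family (right), with named genes in colour and all others in grey. Gm4850 and Gm28645 climb together to the late stage while most genes of their family return towards 0.

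Summed over its 19 chromosome 12 genes, the Eif1a-like family was at 1.75 ± 1.06 FPKM in WT eggs, 312 ± 385 in WT early, 122 ± 122 in MZ-KO early, 769 ± 471 in WT late and 154 ± 58.9 in MZ-KO late embryos (SD, n = 3, 8, 6, 6 and 6). Gm2016, Gm2022 and Gm4027 made up 19.6% to 28.4% of that sum in single WT early embryos, 13.8% to 28.3% in MZ-KO early, 3.02% to 28.1% in WT late and 1.96% to 11.3% in MZ-KO late embryos. The sum is less exposed to reads shared within the family than the values of single genes, and it showed the same wide spread between WT early embryos, from 25.5 to 1196 FPKM.

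Within a group the chromosome 12 genes varied together from embryo to embryo. Such relations were computed for all pairs of the 4 genes in the 4 embryo groups and for Duxf3 in the 2 early groups, 32 in all, and 7 were left out because the libraries fell into separate sets. Of the 8 remaining pairs among the chromosome 12 genes, 6 had an adjusted exact permutation p below 0.05 for Pearson r. Of these 6, Gm2016 with Gm4027 in MZ-KO early embryos did not pass by Spearman rho (adjusted exact permutation p = 0.0889). Neither did Gm2016 with Gm2022 in WT late embryos (0.0667). The share of all gene pairs that vary together this closely is not given here. In WT early embryos Gm2016 and Gm2022 had Pearson r = 0.99 (exact permutation p = 0.000198, adjusted 0.00212) and Spearman rho = 0.929 (exact p = 0.00223, adjusted 0.0222), with r = 0.975 without the 2 libraries farthest from the median. Gm2022 and Gm4027 had r = 0.967 (exact permutation p = 0.000124, adjusted 0.00212) and rho = 0.976 (exact p = 0.000397, adjusted 0.0127), with r = 0.949 without 2. In MZ-KO late embryos Gm2016 and Gm2022 still had r = 0.98 (exact permutation p = 0.00139, adjusted 0.0111) and rho = 1 (exact p = 0.00278, adjusted 0.0222), with r = 0.929 without 2. For r the exceptions were Gm4027 with Gm2016 (r = 0.493, rho = 0.543) and with Gm2022 (r = 0.419, rho = 0.543) in MZ-KO late embryos. Their adjusted exact permutation p for r was 0.455 and 0.562. Most 50-base stretches of these 3 genes also occur in relatives, and the part of this in the relations was not tested.

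Gm4850 shares little sequence with the others, and in WT early embryos it too varied with them. WT early libraries 3, 5, 6 and 7 had 7702 to 7990 genes at FPKM 1 or more. Libraries 1, 2, 4 and 8 had 6965 to 7222, and each of the 4 genes was lower in all of these than in the former. The part of this in the relations was not tested. The r of Gm4850 was 0.866 with Gm2016 (exact permutation p = 0.00813, adjusted 0.0242; rho = 0.79, exact p = 0.0254, adjusted 0.0889), and 0.829 without the 2 farthest libraries. With Gm2022 it was 0.862 (exact permutation p = 0.00694, adjusted 0.0242; rho = 0.886, exact p = 0.00605, adjusted 0.0323), and 0.82 without 2. With Gm4027 it was 0.823 (exact permutation p = 0.00977, adjusted 0.0261; rho = 0.934, exact p = 0.00169, adjusted 0.0222), and 0.802 without 2. Of 10 pairs with Gm4850 4 had an adjusted p below 0.05 for r, these 3 and Gm2022 in MZ-KO late embryos (r = 0.886, exact permutation p = 0.0208, adjusted 0.0476; rho = 0.886, exact p = 0.0333, adjusted 0.0889; r = 0.978 without 2). Duxf3 showed no such relation. Its r ranged from -0.209 to -0.127 with the 4 genes in WT early embryos, and 0 of the 7 relations given with Duxf3 had an adjusted p below 0.05 (exact permutation tests, also 0 of 7 at an unadjusted p below 0.05).

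**Figure D5:**
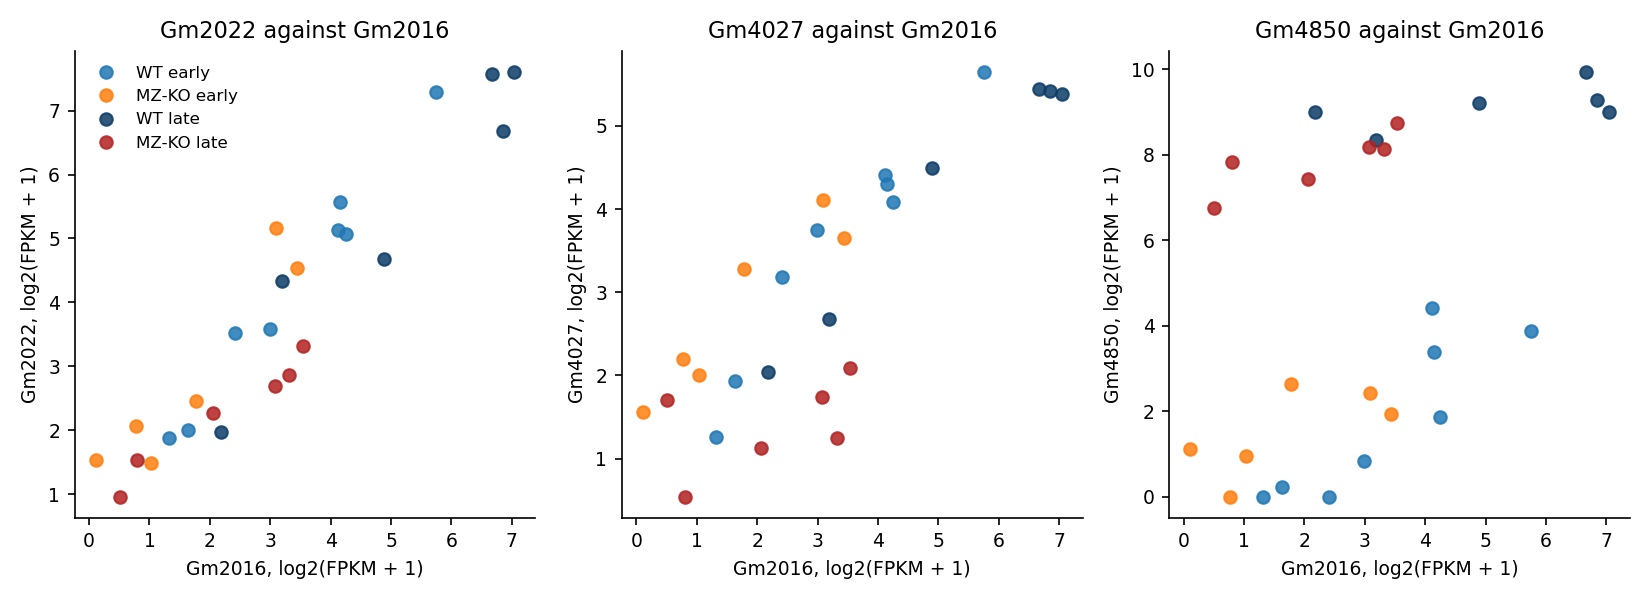
log2(FPKM + 1) of Gm2022, Gm4027 and Gm4850 (vertical axes) against Gm2016 (horizontal axis) in each of the 26 embryos, coloured by group. Gm2022 and Gm4027 lie along Gm2016 from embryo to embryo, Gm4027 in MZ-KO late embryos excepted (r = 0.493), and Gm4850 splits into early embryos at low and late embryos at high levels.

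Over all 32 libraries, and among the 14154 genes that reached FPKM 1 in 3 or more libraries, the genes most like each of the 4 were named by the Pearson r of log2(FPKM + 1), as a description that mixes stage, genotype and embryo. For Gm2016 they were Gm5662 (0.97), Gm2075 (0.953) and Gm4971 (0.922), a processed pseudogene on chromosome 7. For Gm2022 they were Gm5662 (0.965), BB287469 (0.958) and Gm8332 (0.941). For Gm4027 they were BB287469 (0.996), Gm48388 (0.96), an unprocessed pseudogene inside the same chromosome 12 region, and Gm8332 (0.957). Except for Gm4971 and Gm48388 all of these are Eif1a-like relatives. For Gm4850 they were Obox3-ps4 (0.983), Gm12617 (0.977) and Gm33466 (0.976), none of them in its family and all on other chromosomes. Among themselves the 4 genes had r of 0.963 for Gm2016 with Gm2022, 0.955 for Gm2022 with Gm4027 and 0.903 for Gm2016 with Gm4027, against 0.622, 0.501 and 0.388 for Gm4850 with Gm2016, Gm2022 and Gm4027.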

How the data were processed

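The authors deposited 1 table of FPKM values for 54532 genes and 32 libraries, from single eggs or embryos lysed in 5 uL, with SMART-seq v4 cDNA (15 PCR cycles) and Tn5 tagmentation, per the labels' protocols. Per the submitters' processing notes TopHat2, DESeq, DESeq2 and build mm10 were used; the sources used here give neither versions nor the handling of multiply matching reads. The deposited log2 fold changes were copied as they stand. In genes of at most 2000 bp, at least 99.2% of low FPKM values in each library were whole reads within 0.1 read when length was the genomic span (at most 33.4% with exon length), which gave the reads behind each library. SMART-seq does not mark strand; none of the 4 genes overlaps another annotated gene.

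Values were tested as log2(FPKM + 1) in limma 3.58.1 (R 4.3.3, statmod 1.5.0; intensity trend, robust moderation), with only the 2 groups compared. A gene was tested if the number of libraries reaching FPKM 1 was no less than the size of the smaller group, and a Benjamini-Hochberg adjusted p under 0.05 over all genes tested made a call. With a pseudocount of 1, fold changes of low genes come out too small. The step was tested on simulated data. MZ-KO early embryos against KO-labelled eggs, planned as a test, is a description for the 4 genes, which no egg held at FPKM 1. Column headers name groups but no replicate, so libraries are numbered in column order. Relations within groups used exact two-sided permutation of pairings. Relatives were found with blastn 2.17.0 on GENCODE M21 transcripts, in place of a planned protein search, and sequences come from GENCODE M21 and RefSeq promoters (GRCm38.p6). Named genes were the 4 genes, for each the 4 closest relatives and 3 most correlated genes, and called genes of the Dux-induced list. Python 3.11.15 (pandas 2.3.3, numpy 2.4.6) did the rest. The 4 genes, the lists and the tests were chosen with earlier results of these data known. Alternatives were pseudocount, filter, scaling, fit, permutation and leaving out each library.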

Additional observations from a re-analysis of the deposited data

How the results depend on the processing

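Of 416 alternative values computed for the main results, 394 kept their direction and side of the threshold or stayed within the spread of the libraries, and 22 did not. Many of the 394 were fixed in advance. In the contrasts described without a test, leaving out a single library cannot move a difference beyond that spread. Only a change of sign could have counted there, so the 394 is no measure of robustness. For the early genotype comparison the number of genes called was 56 with no filter, 430 with all 6 groups in 1 fit and 105 to 351 when single libraries were left out, while Gm4850 had a difference of 0.01 with a pseudocount of 0.1 and -0.58 to 0.05 without single libraries, a change of sign around 0. For MZ-KO early embryos against KO-labelled eggs 1968 genes were called with a filter of FPKM 5, under which Gm2016, Gm2022 and Gm4850 were not tested. The differences of the 4 genes there are a description. For Gm2016 the value was 4.15 with a pseudocount of 0.1 and 1.70 as the plain difference of means, and for Gm2022 it was 2.87 with no filter. Without single libraries the differences there were 1.36 to 2.02 for Gm2016, 2.42 to 3.15 for Gm2022 and 1.06 to 1.59 for Gm4850. In the late comparison a filter of FPKM 5 left 1502 genes called and 3 Eif1a-like relatives lower, fewer genes being tested. A pseudocount of 0.1 raised the WT early minus egg differences to 6.42 for Gm2016, 7.44 for Gm2022 and 6.70 for Gm4027, as these eggs are at 0. The share of promoters with the motif was 0.207% with 1 more free letter and 0.734% with 1 differing letter, the latter added after seeing the data. Where no construction is named, the cause was not tested. Gm2016, Gm2022, Gm4027 and Gm4850 were picked for being lower in MZ-KO late than in WT late embryos, so that direction is no support. Their differences there were -3.51 to -2.54, -3.90 to -2.77, -3.28 to -2.59 and -1.46 to -1.06 when single libraries were left out. No paired analysis was possible because the columns of the table carry no replicate numbers. Values below about 20 reads, 38 in all over the 4 genes and 32 libraries, limit what can be said of low embryos, and counting error alone does not cover shared reads.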
